A study of Homo sapiens with 6 samples.

Results

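The S100 proteins are small calcium-binding proteins found only in vertebrates. Each subunit carries a pair of EF-hand loops, and in most of the family calcium opens a surface through which an S100 dimer grips a partner protein, such as an annexin, a myosin or ezrin. Some family members are also released from cells and act on surface receptors, AGER (RAGE) among them. In carcinomas the family is mostly studied as markers of epithelial state, motility and invasion. Most of its genes sit side by side on the long arm of chromosome 1, in band 1q21, next to the genes of the outer layers of the epidermis.

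The 10 genes described here are S100A1, S100A2, S100A4, S100A6, S100A10, S100A11, S100A13, S100A14, S100A16 and S100P. They were picked by symbol from the 34811 genes of the count table, with earlier results of these data known, though no threshold on a measured value was applied. Of these 10 genes, 9 lie on chromosome 1 and S100P lies on chromosome 4. Messenger RNA was sequenced from OVCAR-3 cells, an established human line of high-grade serous ovarian carcinoma type, in 3 OV3/SCR and 3 OV3/COX1KD libraries. OV3/SCR cells carry a scrambled shRNA in the pRS HuSH-29 plasmid and have wild-type COX-1. OV3/COX1KD cells carry an shRNA against COX-1, the prostaglandin-forming enzyme encoded by PTGS1, in the same plasmid. Both were stable transfectants selected with puromycin, and all were grown in RPMI-1640 with serum. Each condition was 1 clone sampled at 3 passages, so the p-values measure the spread between passages, and an effect of the knockdown cannot be told apart from one of the clone.

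The libraries held between 25291505 and 27391538 counts. PTGS1 itself was lower in the knockdown, at 73.3% of OV3/SCR, with a log2 fold change of -0.45 (SE 0.057, edgeR FDR = 1.3e-06). Of 8 genes that mark ovarian epithelial carcinoma cells, 7 (PAX8, WT1, MUC16, KRT7, KRT8, KRT18 and EPCAM) were above 3 counts in every library, while ESR1 was at or below 3 counts in all. The summed level of 10 leukocyte, endothelial and fibroblast markers, of which CDH5 and LUM were at or below 3 counts in every library, was 12.6 to 13.2 CPM in OV3/SCR and 8.37 to 9.26 CPM in OV3/COX1KD, against 4490 to 4520 and 5700 to 5870 CPM for the 8 ovarian epithelial markers. CPM here means counts relative to the library total after scaling with edgeR's TMM factors. The epithelial markers did not move together. PAX8 was lower in OV3/COX1KD (log2 fold change -0.76, SE 0.035, edgeR FDR = 4.3e-13), and so was KRT7 (-0.14, SE 0.026, edgeR FDR = 1.0e-04). WT1, KRT8, KRT18, EPCAM and MUC16 were higher, with the largest change in MUC16 (1.36, SE 0.039, edgeR FDR = 4.4e-16). Most of the summed level of the other cell markers was COL1A1, a collagen gene, with 10.1 CPM in OV3/SCR and 5.93 CPM in OV3/COX1KD (log2 fold change -0.77, SE 0.091, edgeR FDR = 5.3e-07). VWF, at 1.31 and 1.73 CPM, and PDGFRB, at 0.102 and 0.234 CPM, had higher means in OV3/COX1KD, and VWF did not pass the test (edgeR FDR = 0.13) while PDGFRB was not tested. The part of these markers in the results below was not tested.

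Of the 10 S100 genes, 9 passed the filter on low counts and were tested (edgeR quasi-likelihood F test, p-values adjusted by Benjamini-Hochberg across 17309 genes, given as the edgeR FDR). In OV3/COX1KD cells 6 were lower (S100A2, S100A6, S100A10, S100A11, S100A4 and S100A13) and 3 were higher (S100A14, S100A1 and S100A16) at an edgeR FDR below 0.01. The background was wide in this comparison. Of all tested genes, 47.9% passed the same threshold, 22.1% lower and 25.8% higher. Among the 7637 tested genes at least as abundant as S100A2, the least abundant of the 9, 64.9% passed, 26.6% lower and 38.3% higher. The median log2 fold change of the 9 genes was -0.42, against 0.047 over those 7637 genes, and the median of its size was 0.63 against 0.20.

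**Figure D1:**
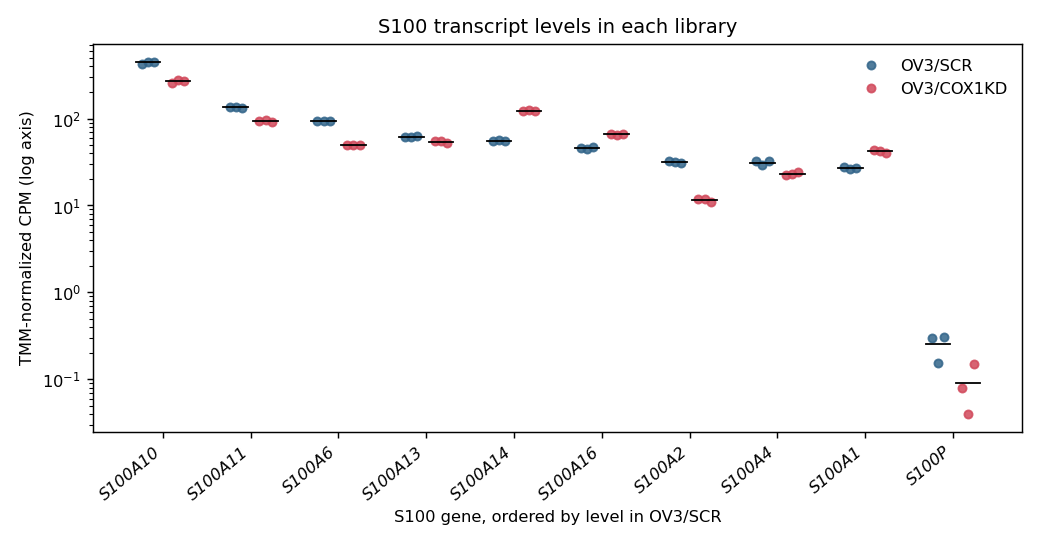
Level of each of the 10 S100 genes in TMM-normalized CPM (log axis) in the 3 OV3/SCR and 3 OV3/COX1KD libraries, with 1 point per library and black bars at the condition means. The 3 libraries of a condition lie close together for the 9 abundant genes, S100A14, S100A16 and S100A1 are higher in OV3/COX1KD, and S100P lies below 0.31 CPM throughout.

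S100A2, an S100 protein of basal and squamous epithelial cells, changed most among the tested members. Its counts in OV3/SCR were 857, 822 and 799, and those in OV3/COX1KD were 299, 294 and 289. Every OV3/COX1KD library lay far below every OV3/SCR library. The level was 31.5 ± 0.621 CPM (SD, n = 3) in OV3/SCR and 11.5 ± 0.559 CPM (SD, n = 3) in OV3/COX1KD cells. This was a log2 fold change of -1.46 (SE 0.059, 95% interval -1.58 to -1.33, edgeR FDR = 7.1e-14), or 36.4% of the control level. S100A2 was the only one of the 9 with an estimate beyond the 2.5-fold limit, which 3.92% of all tested genes passed together with the FDR, 2.34% lower and 1.58% higher. Among the abundant genes defined above these shares were 1.13%, 0.576% lower and 0.55% higher. Tested against 2.5-fold itself with edgeR's glmTreat, its FDR was 0.252.

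The genes of S100A6 and S100A4 also fell. S100A6 encodes calcyclin, which binds the calcyclin-binding protein CACYBP and annexins. It had 2487, 2433 and 2400 counts in OV3/SCR and 1257, 1246 and 1330 counts in OV3/COX1KD libraries. The replicates were very close together, at 93.2 ± 0.286 CPM (SD, n = 3) and 49.9 ± 0.122 CPM (SD, n = 3), and the log2 fold change was -0.90 (SE 0.036, 95% interval -0.98 to -0.83, edgeR FDR = 4.5e-14). S100A4, known as metastasin or fibroblast-specific protein and a partner of non-muscle myosin heavy chain, had 860, 757 and 833 counts in OV3/SCR and 560, 584 and 646 counts in OV3/COX1KD. OV3/SCR replicate 2 was the low library of its group and still lay above every OV3/COX1KD library. The level went from 31.2 ± 1.84 to 23.3 ± 0.999 CPM (SD, n = 3 each), a log2 fold change of -0.42 (SE 0.057, 95% interval -0.54 to -0.30, edgeR FDR = 2.8e-06).

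S100A10 and S100A11 also bind annexins. S100A10, also called p11, has lost calcium binding and is held in a complex with annexin A2 at the cell membrane, where it also serves as a plasminogen receptor. S100A10 had 11438, 11557 and 11690 counts in OV3/SCR and 6494, 6937 and 7122 counts in OV3/COX1KD libraries. Its level fell from 441.6 ± 11.7 to 267 ± 9.40 CPM (SD, n = 3 each), a log2 fold change of -0.72 (SE 0.032, 95% interval -0.79 to -0.66, edgeR FDR = 2.6e-13). S100A11, which binds annexin A1, had 3596, 3537 and 3460 counts in OV3/SCR and 2331, 2440 and 2446 in OV3/COX1KD. This was a log2 fold change of -0.52 (SE 0.034, 95% interval -0.59 to -0.45, edgeR FDR = 8.3e-11), from 134.8 ± 0.947 to 93.9 ± 3.00 CPM (SD, n = 3 each). For both genes every OV3/COX1KD library lay below every OV3/SCR library.

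S100A13, which takes part in the release of FGF1 and interleukin-1α, which lack a signal peptide, showed the smallest change of the tested members. It had 1635, 1619 and 1614 counts in OV3/SCR and 1403, 1367 and 1406 in OV3/COX1KD libraries. The groups did not overlap, and the level of 62.0 ± 0.568 CPM in OV3/SCR was 54.4 ± 1.496 CPM in OV3/COX1KD (SD, n = 3 each). The log2 fold change was -0.19 (SE 0.039, 95% interval -0.27 to -0.11, edgeR FDR = 3.3e-04), a size close to the median of 0.20 over the abundant tested genes.

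Higher in OV3/COX1KD cells were the genes of S100A14, S100A1 and S100A16. S100A14, an S100 protein of epithelial cells, had 1483, 1472 and 1429 counts in OV3/SCR and 3086, 3166 and 3258 counts in OV3/COX1KD libraries. Every OV3/COX1KD library lay far above every OV3/SCR library. The level rose from 55.8 ± 0.622 to 123.8 ± 2.25 CPM (SD, n = 3 each), a log2 fold change of 1.15 (SE 0.035, 95% interval 1.08 to 1.22, edgeR FDR = 9.3e-16). S100A16, a broadly expressed member, had 1227, 1172 and 1214 counts in OV3/SCR and 1660, 1637 and 1779 in OV3/COX1KD. It rose by a log2 fold change of 0.52 (SE 0.039, 95% interval 0.44 to 0.60, edgeR FDR = 7.0e-10), from 46.0 ± 0.994 to 66.0 ± 0.726 CPM (SD, n = 3 each).

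S100A1 is best known from heart and skeletal muscle, where it acts on calcium release. It had 737, 691 and 707 counts in OV3/SCR and 1106, 1048 and 1076 counts in OV3/COX1KD libraries. The level was 27.2 ± 0.586 CPM in OV3/SCR and 42.1 ± 1.79 CPM in OV3/COX1KD (SD, n = 3 each), a log2 fold change of 0.63 (SE 0.049, 95% interval 0.53 to 0.73, edgeR FDR = 1.3e-09). In all 3 genes that rose, every OV3/COX1KD library lay above every OV3/SCR library. Non-overlap of the library ranges was common in this comparison, at 63.2% of all tested genes and 75.6% of the abundant ones.

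S100P, first found in placenta and a partner of ezrin, was barely detected. It had 8, 4 and 8 counts in OV3/SCR and 2, 1 and 4 counts in OV3/COX1KD libraries, and the ranges of counts met at 4. It was left out by the low count filter. Without that filter its edgeR FDR was 0.099, so a difference was not detectable at this depth. A level of 3 counts, taken as the floor, corresponded to 0.113 to 0.120 CPM, which covers counting error only because PCR copies of a molecule are not independent.

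**Figure D2:**
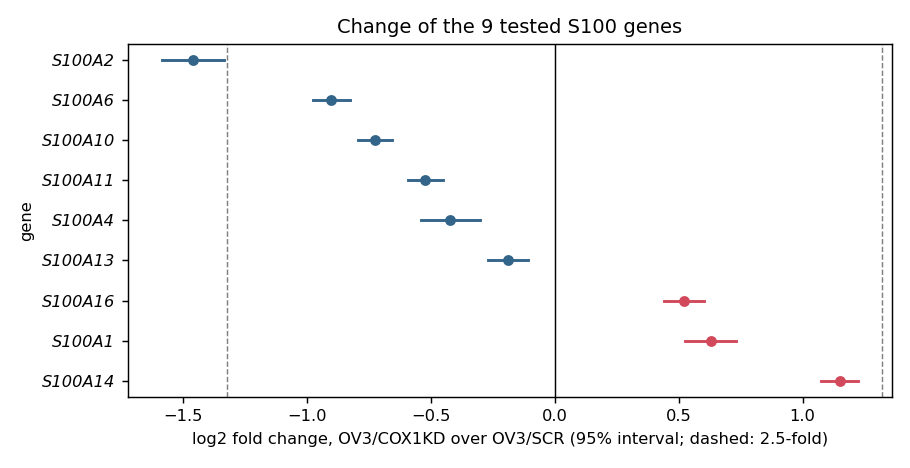
Log2 fold change of the 9 tested S100 genes (points) with 95% intervals (bars), blue where lower and red where higher in OV3/COX1KD, with dashed lines at 2.5-fold. The estimates run from -1.46 for S100A2 to 1.15 for S100A14, and no interval reaches 0.

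Per length, S100A10 had the highest level of the 10 genes in both conditions. With CPM divided by the kilobases of annotated exons (CPM per kb), S100A10 stood at 436 ± 11.5 in OV3/SCR and 264 ± 9.29 in OV3/COX1KD cells (SD, n = 3 each). The order of the per-length levels in OV3/SCR was S100A10, S100A11, S100A6, S100A14, S100A4, S100A13, S100A16, S100A2, S100A1 and S100P, and the library ranges of neighbours in that order did not overlap. The steps from S100A13 (28.0 ± 0.256 CPM per kb) to S100A16 (27.0 ± 0.582) and to S100A2 (20.4 ± 0.401) depended on the length taken. With the longest transcript in place of all exons, S100A16 and S100A2 came before S100A13, and the ranges of S100A4 and S100A16 overlapped.

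In OV3/COX1KD cells the order was different. S100A14 moved from the fourth place to the third, at 96.9 ± 1.74 CPM per kb, above S100A6 at 51.4 ± 0.129, and S100A16 moved above S100A4. S100A1 moved above S100A2, at 13.9 ± 0.591 against 7.43 ± 0.360 CPM per kb. The ranges of S100A4 and S100A13, at 24.6 ± 1.06 and 24.5 ± 0.677 CPM per kb, overlapped, so these neighbours did not differ beyond their spread on this scale. With the longest transcript they did not overlap, at 29.5 to 32.1 CPM per kb for S100A4 and 24.2 to 25.5 for S100A13.

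The summed per-length level of the 10 genes was 901.6 ± 10.3 CPM per kb in OV3/SCR and 666.6 ± 14.5 CPM per kb in OV3/COX1KD (SD, n = 3 each). S100A10 made up 47.6% to 49.0% of this sum in OV3/SCR and 38.9% to 40.1% in OV3/COX1KD. The share of S100A14 was 4.75% to 4.90% in OV3/SCR and 14.5% to 14.7% in OV3/COX1KD, and that of S100A6 was 10.5% to 10.8% and 7.499% to 7.86%. The share of S100A11 differed little by comparison, at 22.6% to 23.3% and 21.4% to 22.0%.

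**Figure D3:**
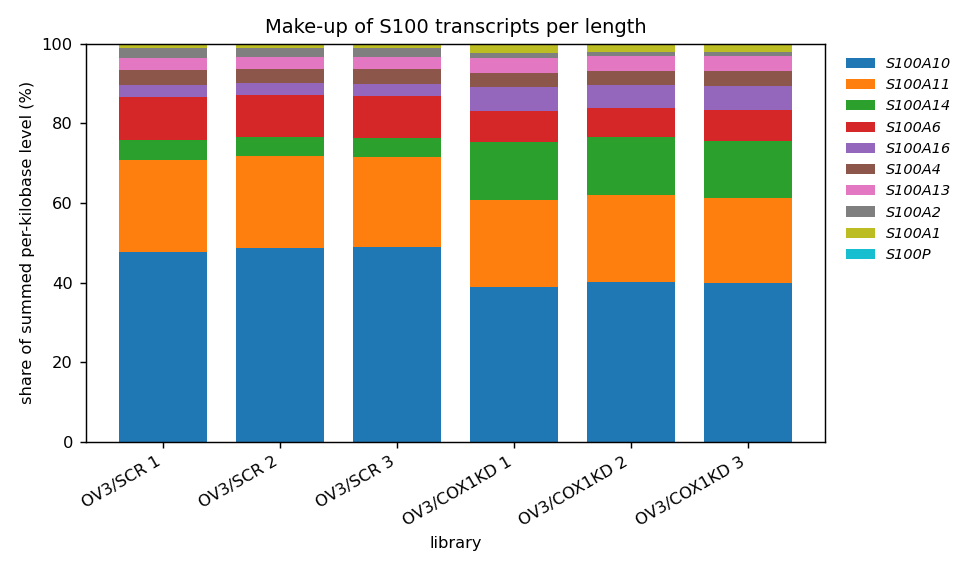
Share of each S100 gene in the summed per-kilobase level of the 10 genes (percent, stacked), with 1 bar per library. S100A10 takes 47.6% to 49.0% in OV3/SCR and 38.9% to 40.1% in OV3/COX1KD, while S100A14 grows from under 5% to over 14%.

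Ratios of counts within a library do not depend on the scaling between libraries. There were 1.73 to 1.79 counts of S100A14 per count of S100A2 in OV3/SCR, and 10.3 to 11.3 in OV3/COX1KD. The ratio of S100A14 to S100A6 was 0.595 to 0.605 in OV3/SCR and 2.45 to 2.54 in OV3/COX1KD. The ratio of S100A1 to S100A13, which overlap in the genome, was 0.427 to 0.451 in OV3/SCR and 0.765 to 0.788 in OV3/COX1KD.

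Along chromosome 1 of GRCh37, every tested gene from S100A10 to S100A2 had a negative estimate. A short stretch of that run holds 5 S100 genes. S100A6 (153507075 to 153508720), S100A5 (153509623 to 153514241), S100A4 (153516089 to 153522612), S100A3 (153519805 to 153521734, within the span of S100A4) and S100A2 (153533584 to 153540366) lie within 33.3 kb on the minus strand. All 5 were lower in OV3/COX1KD at an edgeR FDR below 0.01, as were 22.1% of all tested genes and 26.6% of the abundant ones. S100A3 and S100A5 are not among the 10 genes and were scarce. S100A3 had 26, 34 and 28 counts in OV3/SCR and 8, 6 and 8 in OV3/COX1KD, which gave a log2 fold change of -1.95 (SE 0.31, edgeR FDR = 1.8e-05). S100A5 had 21, 14 and 20 counts and 6, 3 and 6 counts, a log2 fold change of -1.82 (SE 0.38, edgeR FDR = 4.3e-04). The estimates for these 5 genes ranged from -1.95 to -0.42, so the genes fell by unequal amounts.

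After a gap of 39.0 kb follow S100A16 (153579362 to 153585621), S100A14 (153586731 to 153589462) and S100A13 (153591263 to 153603836) on the minus strand and S100A1 (153600402 to 153604515) on the plus strand, all within 25.2 kb. Of these 4 genes, 3 rose and S100A13 fell, where 25.8% of all tested genes and 38.3% of the abundant ones were higher. How often neighbouring genes elsewhere share a direction was not computed. S100A13 and S100A1 share 235 bases of exon on opposite strands, 10.6% of the exon length of S100A13 and 7.76% of that of S100A1. Without strand, reads from the shared bases cannot be told apart. S100A13 shares a longer part of its exons, 536 bases or 24.2%, with the lncRNA gene ENSG00000271853 on the same strand, which was not analysed here. S100A1 also shares 320 bases of exon with the antisense gene ENSG00000272030, whose log2 fold change was -0.89 (SE 0.19, edgeR FDR = 3.5e-04). S100A10 (151955391 to 151966335) and S100A11 (152004982 to 152020383) lie apart from this stretch on the same arm, and S100P is on chromosome 4 from 6695605 to 6698897.

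**Figure D4:**
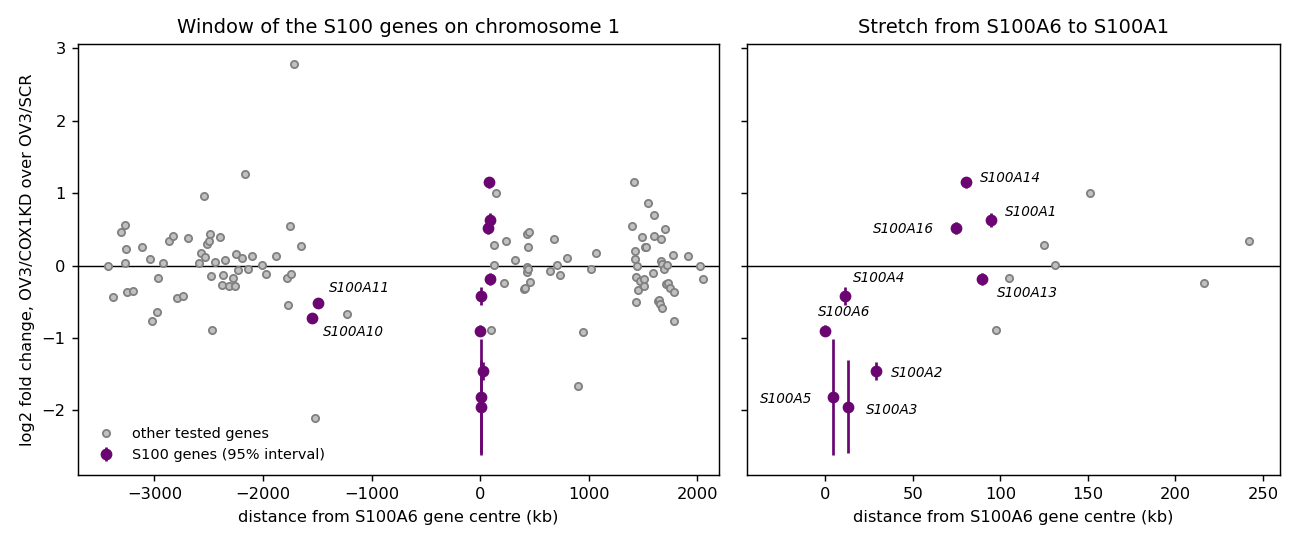
Log2 fold change against the distance from the centre of the S100A6 gene (kb), over the whole window (left) and the stretch from S100A6 to S100A1 (right). Purple points are tested S100 genes (bars are 95% intervals) and grey points are other tested genes. FLG, FLG2 and HRNR, which were tested and lie in the window with negative estimates, are not drawn. The 5 genes from S100A6 to S100A2 lie below 0, and S100A16, S100A14 and S100A1 lie above it, while the grey points lie on both sides of 0.

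Taken over the whole window, the genes around the S100 genes did not share a direction. Leaving out S100 genes and the fused-type S100 genes described below, 116 genes were tested from 2 Mb before S100A10 to 2 Mb beyond S100A1. Of these, 33 were higher and 31 lower at an edgeR FDR below 0.01, which is 28.4% and 26.7%, near the 25.8% and 22.1% of all tested genes. Together 55.2% passed, against 47.9% of all tested genes, and their median log2 fold change was 0.0013. Inside the span from S100A10 to S100A1 only 2 of the 116 were tested, AL591893.1 and FLG-AS1, and both were lower (log2 fold change -2.11 and -0.67). The tested fused-type genes FLG, FLG2 and HRNR also lie inside that span, and their estimates were negative too. Just beyond S100A1, CHTOP had a log2 fold change of -0.18 (SE 0.035), SNAPIN 0.28 (SE 0.042) and ILF2 0.013 (SE 0.029), and NPR1, encoding a natriuretic peptide receptor, had 1.00 (SE 0.042). Large changes in the window included those of the lncRNA gene AL591893.1, which runs from 151967007 to 152015250 on the plus strand and overlaps the span of S100A11 on the other strand (log2 fold change -2.11, SE 0.32), IL6R (-1.67, SE 0.090) and SELENBP1 (1.26, SE 0.049), all at an edgeR FDR of 1.4e-05 or less.

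Promoters are printed for genes that fell, S100A2 and S100A4 in the stretch described above and the abundant S100A10, and for S100A16, which rose. Each is the 250 bases before the RefSeq start site that coincides with the start of the MANE Select transcript, and none of these 4 windows holds a base annotated as UTR. The window of S100A6 lies within a UTR of another S100A6 transcript and that of S100A14 shares 30 bases with one, so neither is printed. The sequences came from RefSeq windows of GRCh38.p14 that matched GRCh37 letter for letter. They lie on the minus strand at chr1:153538321-153538570 for S100A2, chr1:153518283-153518532 for S100A4, chr1:151966336-151966585 for S100A10 and chr1:153585614-153585863 for S100A16. Capitals mark matches, on either strand, to an AP-1 site, a TATA box, a GC box or a cAMP response element, whose letters are given with their counts.
S100A2: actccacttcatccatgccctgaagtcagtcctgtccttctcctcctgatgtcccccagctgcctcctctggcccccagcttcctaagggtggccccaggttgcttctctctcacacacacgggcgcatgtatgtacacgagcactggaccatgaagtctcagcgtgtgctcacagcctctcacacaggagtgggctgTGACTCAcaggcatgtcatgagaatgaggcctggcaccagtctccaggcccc
S100A4: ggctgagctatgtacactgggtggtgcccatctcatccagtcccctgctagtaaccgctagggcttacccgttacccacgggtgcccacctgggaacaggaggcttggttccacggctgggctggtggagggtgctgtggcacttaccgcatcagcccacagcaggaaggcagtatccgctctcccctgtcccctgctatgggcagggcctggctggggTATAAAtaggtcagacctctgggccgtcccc
S100A10: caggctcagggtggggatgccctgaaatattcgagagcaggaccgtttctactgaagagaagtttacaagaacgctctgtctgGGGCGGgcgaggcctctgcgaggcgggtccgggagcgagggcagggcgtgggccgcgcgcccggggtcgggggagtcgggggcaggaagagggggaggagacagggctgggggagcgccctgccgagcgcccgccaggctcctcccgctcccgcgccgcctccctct
S100A16: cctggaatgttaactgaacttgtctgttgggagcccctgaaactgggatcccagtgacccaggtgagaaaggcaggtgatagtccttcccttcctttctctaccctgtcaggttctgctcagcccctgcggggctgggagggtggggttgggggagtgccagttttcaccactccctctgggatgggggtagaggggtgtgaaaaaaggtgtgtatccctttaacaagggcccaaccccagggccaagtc

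The AP-1 site, searched as TGACTCA, was found in S100A2 and began 52 bases before the start site. Of all 35116 RefSeq windows of this length 4.2% held it, and no other of the 14 windows of the 10 genes did. The TATA box, searched as TATAAA, was found in the windows of S100A4, S100A13 and S100P, where it began 28 to 31 bases before the start site, against 10.7% of all windows.

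The GC box, searched as GGGCGG, was found in 5 of the 14 windows and in 42.6% of all windows. The window of S100A10 held 1, which began 167 bases before the start site, and that of S100A6 held 3, which began 90, 79 and 75 bases before it, the last pair overlapping. No window of the 10 genes held the cAMP response element, TGACGTCA, which was found in 1.65% of all windows. The printed window of S100A16 and that of S100A14 held no match. These matches describe letters and do not show binding.

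Beyond the 10 genes, the list of other S100 genes held 11 symbols, of which 5 were in the count table. S100A3 and S100A5 were the 2 tested, and both fell, as given above, where 22.1% of all tested genes were lower at the same threshold. S100A8, S100A9 and S100B were too scarce to be tested, with no library above 11 counts. The fused-type S100 proteins join an S100 domain to long repeats and build the outer epidermis, and their genes lie between S100A11 and S100A9. Of 7 such genes, 3 were tested and 1 passed, or 33.3%, against 47.9% of all tested genes. This was FLG, which encodes filaggrin, with 2662, 2761 and 2816 counts in OV3/SCR and 265, 211 and 225 counts in OV3/COX1KD libraries.

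The change of FLG was larger than that of any of the 10 genes. Its level fell from 104.9 to 9.13 CPM, a log2 fold change of -3.52 (SE 0.063, edgeR FDR = 8.4e-19), or 8.70% of the control. Exons of the antisense gene FLG-AS1 cover 12.4% of the exon length of FLG, and FLG-AS1 had a log2 fold change of -0.67 (SE 0.11, edgeR FDR = 4.7e-05). FLG2 had a log2 fold change of -1.05 (SE 0.33, edgeR FDR = 0.011) and HRNR -0.46 (SE 0.22, edgeR FDR = 0.082), neither past the threshold.

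Genes for proteins that S100 dimers bind were described from a list of 19, of which 14 were tested, 7 lower and 3 higher at an edgeR FDR below 0.01. That is 71.4% of those tested, against 47.9% of all tested genes and 64.9% of those at least as abundant as S100A2, and most of the partner genes were that abundant. Their median log2 fold change was -0.15. PPFIBP1, encoding liprin β1, which binds S100A4, had 51.0% of the control level, with a log2 fold change of -0.97 (SE 0.029, edgeR FDR = 8.2e-16). EZR, encoding ezrin, the membrane-cytoskeleton linker that S100P binds, had -0.67 (SE 0.032, edgeR FDR = 6.2e-13). ANXA6 rose, with 86, 58 and 50 counts in OV3/SCR and 114, 116 and 101 in OV3/COX1KD, a log2 fold change of 0.80 (SE 0.17, edgeR FDR = 3.6e-04). AHNAK, whose giant protein is a partner of the S100A10 and annexin A2 complex, had a log2 fold change of -0.11 (SE 0.065, edgeR FDR = 0.17). MYH9, CACYBP and TRPV6 did not pass with DESeq2 (FDR 0.044, 0.013 and 0.031) or without OV3/SCR replicate 3 (edgeR FDR 0.013, 0.028 and 0.071), which left 4 partner genes lower in each case.

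The genes of annexin A2 and annexin A1 also fell, with log2 fold changes closer to 0 than those of S100A10 and S100A11, whose products they bind. Of the other annexin genes tested from the partner list, ANXA6 rose, as given above. ANXA11 had a log2 fold change of 0.013 (SE 0.030, edgeR FDR = 0.73). ANXA2 had a log2 fold change of -0.33 (SE 0.027, edgeR FDR = 2.1e-09) beside -0.72 for S100A10, and there were 0.214 to 0.228 counts of S100A10 per count of ANXA2 in OV3/SCR and 0.162 to 0.179 in OV3/COX1KD libraries. ANXA1 had -0.38 (SE 0.029, edgeR FDR = 7.4e-10) beside -0.52 for S100A11, with 0.267 to 0.281 counts of S100A11 per count of ANXA1 in OV3/SCR and 0.241 to 0.258 in OV3/COX1KD. The ranges of both ratios did not overlap between the conditions. How often this holds for other pairs of genes was not computed. For single genes the library ranges did not overlap in 75.6% of the abundant ones.

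Of the 6 listed genes for surface receptors of released S100 proteins, 5 were tested and all 5 passed, 3 lower and 2 higher, where 47.9% of all tested genes and 64.9% of the abundant ones passed. AGER, encoding RAGE, had 242, 249 and 223 counts in OV3/SCR and 153, 173 and 188 in OV3/COX1KD, which gave a log2 fold change of -0.44 (SE 0.092, edgeR FDR = 3.8e-04). MCAM had -0.46 (SE 0.042, edgeR FDR = 1.5e-08) and ALCAM -0.24 (SE 0.030, edgeR FDR = 1.2e-06). BSG, encoding basigin, rose by 0.33 (SE 0.031, edgeR FDR = 2.5e-08) and NPTN by 0.26 (SE 0.037, edgeR FDR = 7.1e-06).

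**Figure D5:**
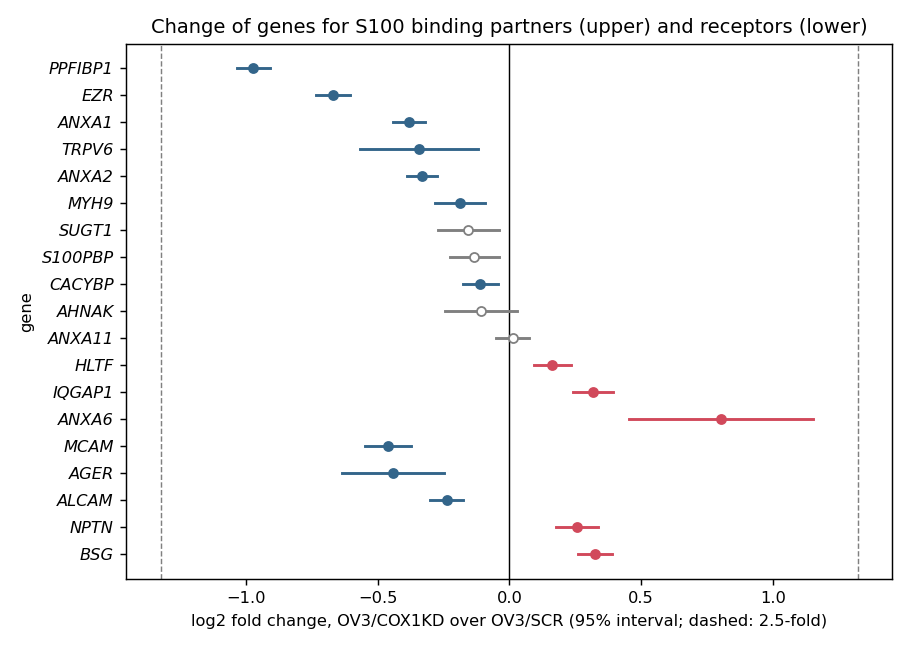
Log2 fold change of tested genes for S100 binding partners (upper 14 points) and S100 receptors (lower 5) with 95% intervals, filled where the edgeR FDR is below 0.01 and open where it is not. PPFIBP1 and EZR have the most negative estimates, ANXA6 has the most positive, and no gene reaches the dashed lines at 2.5-fold.

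The genes whose levels followed S100A2 most closely over the 6 libraries were CAV1 (Pearson r = 0.99977), IL1R2 (r = 0.99977) and DUSP8 (r = 0.99975), of 13011 genes compared on log2 CPM. Their log2 fold changes were -1.64, -2.51 and -1.46. This is a description over 6 libraries that share 2 conditions, and 525 genes had an r above 0.99.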

How the data were processed

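Per the labels, libraries were made with the Illumina TruSeq RNA kit, which does not mark strand, from 3 OV3/SCR and 3 OV3/COX1KD cell populations. The submitters' processing notes name TopHat2 2.0, HTSeq and hg19 (GRCh37), and the authors deposited the counts of reads in each gene as raw values. The gene annotation and the strand setting are not given in the sources used here.

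Conditions and replicate numbers came from the labels. The count table was tested with edgeR 4.0.16 under R 4.3.3 (TMM, filterByExpr, glmQLFit and glmQLFTest with condition as the only factor, Benjamini-Hochberg adjustment over 17309 of 34811 genes, FDR below 0.01). A standard error is the log2 fold change divided by the square root of F, and 95% intervals use the t distribution of the fit. The common dispersion was 0.00103. Coordinates and exon lengths came from GENCODE 44 on GRCh37, where 33556 genes had an entry, and promoters from RefSeq.

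The genes and the lists of S100 genes, partners and receptors were chosen with earlier results of these data known. Named outside the 10 genes were PTGS1, AGER and the annexins of S100A10 and S100A11, up to 4 of the largest called changes per list (1 of the neighbouring genes is not reported here), and the 3 genes best correlated with S100A2 on log2(CPM + 0.1). CHTOP, SNAPIN, ILF2, NPR1, AHNAK, ANXA11, ALCAM, FLG2, HRNR, the markers and genes overlapping a named gene were added after their values were seen. So were MYH9, CACYBP and TRPV6, named because their calls changed with the processing.

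Libraries of 1 condition differed by more than sampling noise (chi-square per degree of freedom 1.82 to 6.40). Alternatives were RLE factors, total count scaling, other low count filters, DESeq2 1.42.0, the replicate block, leaving out each library, glmTreat and, added after seeing the data, GC and length offsets. In counts simulated from the mean levels of 17309 genes, edgeR called 63 of 68 abundant genes changed by 0.5 (log2). It called 79 of 79 changed by 1.5. The simulation left 16845 genes unchanged and gave every gene the common dispersion, whereas 47.9% of the measured genes passed. It therefore does not give error rates for the measured data. Listed genes without a row in the count table used were not analysed here.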

Additional observations from a re-analysis of the deposited data

How the results depend on the processing

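All 9 tested S100 genes kept their direction and an edgeR or DESeq2 FDR below 0.01 in each of the 126 alternative values computed for them. The largest FDR was that of S100A13, 0.0037, with OV3/SCR replicate 3 left out. Total count scaling shifted the median log2 fold change of tested genes by -0.078. The fitted trend over GC content and length lay between -0.077 (S100A11) and 0.048 (S100A10) at the 9 genes. Against 2.5-fold by glmTreat, 0 of the 9 genes passed in place of 1 (S100A2), and S100A2 was the 1 gene under an unadjusted threshold of 0.05 in that edgeR model. Of the other S100 and fused-type genes, 3 were lower, 1 with at least 10 counts required in every library and 5 with no filter. With DESeq2, 4 partner genes were lower in place of 7, and 4 to 8 when 1 library was left out. Within 1 Mb, 16 neighbouring genes were higher and 16 lower, and beyond S100A1 alone, an alternative chosen after seeing the data, 18 and 20.

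Same-numbered libraries deviated from their condition means with correlations of 0.0015, 0.0483 and 0.0227 across 13012 genes. Between libraries of different number the correlations were -0.0422 to 0.0205. The main fit had condition as its only factor and did not take the numbers as a pairing. The labels speak of replicate pairs without saying what a number shares. With the replicate block 3 S100 genes were higher and 6 lower, as without it. Of 33 tested genes of the S100, partner and receptor lists, the block changed 2 calls, FLG2 (FDR 0.0080) and TRPV6 (FDR 0.012).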
